A study of Mus musculus with 15 samples.

Results

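Bone macrophages cultured with M-CSF were compared between 2 wild-type (WT) libraries and 6 knockout libraries that carry the same form of sample code. The 8 libraries were chosen by the code alone, as those with the digit after the letter B, out of 15 libraries in the series. They comprise WT replicates 1 and 3 (n = 2), ROBO4_KO replicates 1, 2 and 3 (n = 3) and VLDLR_KO replicates 1, 2 and 3 (n = 3). All were labelled as C57BL6J macrophages from bone, kept for 14 days in M-CSF at 20 ng/ml, a growth factor on which macrophages depend. The knockouts lack ROBO4, a guidance receptor, or VLDLR, a lipoprotein receptor, and the labels do not say how either allele was made. The other 7 libraries, with the digit before B, held 3 WT, 2 ROBO4_KO and 2 VLDLR_KO libraries under the same labels, and what the forms mean is not stated. Whether replicates came from different animals or dishes is not stated, so p values reflect the spread between these libraries, which may be technical. In whole-culture RNA, fewer cells of a type and less RNA per cell cannot be told apart.

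Immediate-early genes are switched on within minutes of a stimulus, without new protein synthesis, and many encode transcription factors such as FOS and EGR1. In macrophages, signals through Toll-like and cytokine receptors also release NF-kB, which drives genes for TNF, interleukins and chemokines. Both waves induce their own brakes: phosphatases that act on MAP kinases, proteins that speed mRNA decay, inhibitors that hold NF-kB in the cytoplasm, and SOCS proteins that block cytokine receptors.

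The 15 libraries held 18132866 to 19005966 estimated counts each, and levels are given as CPM, counts divided by library size and scaled by TMM over all 15. Robo4 had 0.112 and 0.228 CPM in WT, 0, 0 and 0 CPM in ROBO4_KO and 0, 0.056 and 0 CPM in VLDLR_KO, and Vldlr had 0.28 and 0.513 CPM in WT, 0.612, 0.104 and 0.307 CPM in ROBO4_KO and 0.053, 0.502 and 0.477 CPM in VLDLR_KO, so the targeted mRNAs were too scarce in WT to check the genotype labels. Of the markers of the labelled cell type, Csf1r, the M-CSF receptor gene, had 1503 and 1653 CPM in WT, against 1468 to 1595 CPM in the knockouts. Adgre1, which encodes F4/80, had 1064 and 1118 CPM in WT, against 743 to 1154 CPM in the knockouts, and the T-cell gene Cd3e was at most 0.057 CPM. ROBO4_KO replicate 1 and VLDLR_KO replicate 2 stood apart from their groups, and their deviations from the group means had a correlation of 0.60 across genes. The summed level of 4 Y-linked genes was 0.16 and 0.06 CPM in VLDLR_KO replicates 1 and 2, against 127 to 218 CPM in the other 6 of the 8 libraries. With the digit before B it was 0 CPM in WT replicate 1, against 124 to 236 CPM in the other libraries of that form.

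Promoter windows show what sequence lies upstream of genes that were high in the WT libraries. For 4 of them, the 250 bases before the RefSeq start are printed 5′ to 3′ (build GRCm38.p6), chosen because each holds a match, which is in capitals. Btg2 and Dusp1 hold a cAMP response element (TGACGTCA), and Nfkbia and Cxcl2 hold a kappa-B site.
Btg2 (chr1:134079156-134079405, minus strand): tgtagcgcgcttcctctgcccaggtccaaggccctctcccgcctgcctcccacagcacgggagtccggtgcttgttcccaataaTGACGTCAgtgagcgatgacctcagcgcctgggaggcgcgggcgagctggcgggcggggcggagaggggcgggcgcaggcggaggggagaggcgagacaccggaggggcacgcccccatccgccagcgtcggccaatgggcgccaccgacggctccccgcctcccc
Dusp1 (chr17:26508473-26508722, minus strand): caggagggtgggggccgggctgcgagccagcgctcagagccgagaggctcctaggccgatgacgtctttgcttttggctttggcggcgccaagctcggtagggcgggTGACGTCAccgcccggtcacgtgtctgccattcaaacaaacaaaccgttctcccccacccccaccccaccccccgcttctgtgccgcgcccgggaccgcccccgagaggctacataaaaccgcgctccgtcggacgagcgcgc
Nfkbia (chr12:55492648-55492897, minus strand): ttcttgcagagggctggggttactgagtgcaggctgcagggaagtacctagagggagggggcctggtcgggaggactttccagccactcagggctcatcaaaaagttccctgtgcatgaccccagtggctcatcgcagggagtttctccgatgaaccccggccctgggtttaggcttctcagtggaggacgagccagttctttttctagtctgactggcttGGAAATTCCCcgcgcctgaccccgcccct
Cxcl2 (chr5:90903649-90903898, plus strand): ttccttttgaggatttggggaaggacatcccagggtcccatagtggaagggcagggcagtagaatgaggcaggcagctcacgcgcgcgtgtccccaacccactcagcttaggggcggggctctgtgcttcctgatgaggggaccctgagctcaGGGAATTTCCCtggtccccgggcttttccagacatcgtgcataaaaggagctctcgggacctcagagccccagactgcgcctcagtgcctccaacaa
Counted from the start, the Btg2 match spans -166 to -159, the Dusp1 match -143 to -136 and the Nfkbia match -29 to -20. In Cxcl2, overlapping kappa-B matches on the opposite strands span -97 to -87. No match of another searched motif overlaps these.

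In the 8 libraries, 464 of 11744 tested genes (3.95%) were called higher in WT than in the mean of the knockouts and 180 (1.53%) lower, by edgeR's quasi-likelihood test at an adjusted p under 0.05. Positive log2 fold changes mean higher in WT, and numbers in parentheses after a gene are its log2 fold change and adjusted p from this test. Genes of rapid activation stood at the head of the higher calls, with Fosb, Cxcl2, Cxcl1, Il1b, Ptgs2 and Socs3 at log2 fold changes of 5.98 to 7.30. Both WT libraries lay above all 6 knockout libraries for 364 of the called genes (3.1% of those tested) and below all 6 for 128 (1.09%). Without WT replicate 1 the higher and lower calls were 200 and 52, and without WT replicate 3 they were 105 and 35, where the lone WT library is assumed to vary like the other groups. They were 275 and 108 without ROBO4_KO replicate 2, 306 and 107 without VLDLR_KO replicate 3, and 754 and 371 without VLDLR_KO replicate 2, while the lower calls were 275 without ROBO4_KO replicate 1 and 108 without ROBO4_KO replicate 3. The 364 genes became 165, 86 and 221 without WT replicate 1, WT replicate 3 or ROBO4_KO replicate 2, and the 128 became 34, 21, 78, 74, 258 and 77 without WT replicate 1, WT replicate 3, ROBO4_KO replicate 2, ROBO4_KO replicate 3, VLDLR_KO replicate 2 or VLDLR_KO replicate 3. With ROBO4_KO replicate 1 and VLDLR_KO replicate 2 both left out there were 1811 higher and 1656 lower calls, of which 822 lay above and 540 below all knockout libraries. Without the 2 VLDLR_KO libraries that lack Y-linked reads there were 317 and 104, of which 254 lay above and 73 below.

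The 3 lists of activation genes held a larger share of higher calls than the 3.95% of all tested genes. The lists were written with earlier results of these data known, so this larger share is a description and not a test. Of 35 tested immediate-early factors, 15 were called higher and 2 lower (median log2 fold change 0.50). Of 52 feedback regulators, 28 were called higher and 0 lower (median 0.85; 2 lower at an unadjusted p under 0.05, and 0 by DESeq2), and of 51 inflammatory mediators, 18 were called higher and 1 lower (median 0.63). Both WT libraries lay above all 6 knockout libraries for 14, 32 and 22 members of these lists, called or not, against 9.81% of all tested genes, and below all 6 for 1 member of each list, against 8.13%. The median over all tested genes was -0.00. Summed over the list, immediate-early factors had 4259 and 4744 CPM in WT, against 2018 to 2555 CPM in the knockouts. Feedback regulators had 6524 and 7359 CPM in WT, against 2420 to 2822 CPM in the knockouts, and inflammatory mediators 2913 and 3235 CPM in WT, against 1349 to 2455 CPM. Without WT replicate 3, 9 immediate-early factors and 11 inflammatory mediators were called higher, with the 2 libraries that stood apart left out the 3 lists had 22, 35 and 23 higher calls, and 34 of the 61 higher calls in the 3 lists held under every alternative setting.

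**Figure D1:**
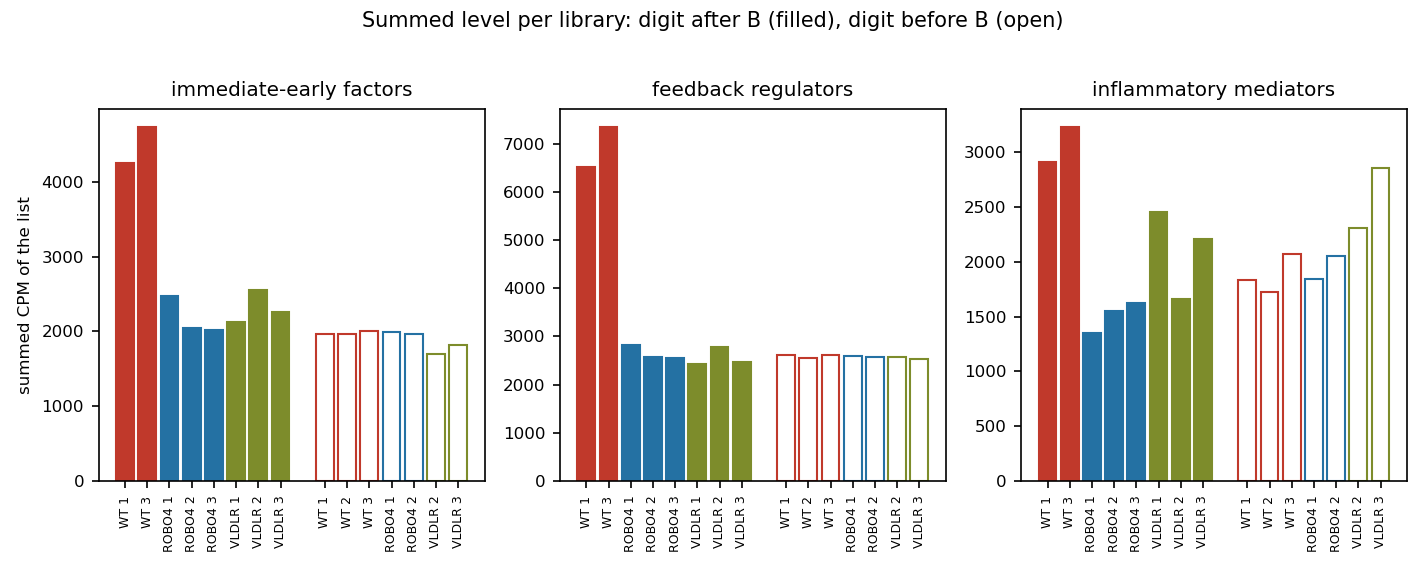
Summed CPM of each list (vertical axis, from 0) in each of the 15 libraries, with filled bars for the digit after B and open bars for the digit before B. The WT 1 and WT 3 bars stand above all others in each panel, at 6524 and 7359 CPM for feedback regulators against 2420 to 2822 CPM in the 6 knockout libraries of the same form.

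Among the subunits of AP-1, the dimeric factor of FOS and JUN proteins, Fos had 855 and 944 CPM in WT, 52.8, 54.4 and 56.1 CPM in ROBO4_KO and 41.9, 53.1 and 48.2 CPM in VLDLR_KO. The WT libraries thus lay far above every knockout library, with little spread inside any group (log2 fold change 4.14, SE 0.08, adjusted p = 1.01e-07). Fosb, which encodes another FOS family member, had 93.6 and 132 CPM in WT, 0.167, 0.521 and 0.615 CPM in ROBO4_KO and 1.64, 0.669 and 1.11 CPM in VLDLR_KO (log2 fold change 7.30, SE 0.26, adjusted p = 1.95e-06). Junb had 514 and 552 CPM in WT, against 67.1 to 106 CPM in the knockouts (log2 fold change 2.61, SE 0.13, adjusted p = 1.63e-05). Jun, the partner of FOS, differed much less, with 195 and 217 CPM in WT, against 102 to 133 CPM in the knockouts (0.79, adjusted p = 0.00266). Fosl2 was called (0.50, adjusted p = 0.0326) although 1 VLDLR_KO library, at 43.8 CPM, lay above WT replicate 1, at 42.1 CPM. Atf3, a stress-induced partner of JUN, was not called (0.03, adjusted p = 0.959) and was high in every library, with 473 and 483 CPM in WT, 762, 522 and 465 CPM in ROBO4_KO and 279.6, 514 and 341 CPM in VLDLR_KO. Jund (0.36, adjusted p = 0.375) and Batf (0.27, adjusted p = 0.492) were not called.

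Of 9 tested EGR, NR4A and KLF factors, 6 were called higher and 0 lower. Egr1, a zinc finger factor induced through ERK, had 249.6 and 296 CPM in WT, 4.06, 3.91 and 6.15 CPM in ROBO4_KO and 53.6, 24.3 and 44.2 CPM in VLDLR_KO. All VLDLR_KO libraries lay between WT and ROBO4_KO (log2 fold change 4.30, SE 0.25, adjusted p = 3.16e-05), and Egr1 lost its call with the knockouts treated as 1 group (adjusted p = 0.142). Nr4a1, an orphan nuclear receptor gene, had 76.5 and 78.3 CPM in WT, 1.61, 2.71 and 2.97 CPM in ROBO4_KO and 2.44, 3.85 and 3.45 CPM in VLDLR_KO (log2 fold change 4.78, SE 0.18, adjusted p = 2.9e-06). Its relative Nr4a2 was low, at 3.8 and 5.76 CPM in WT, against 0.955 to 1.95 CPM in the knockouts (1.88, adjusted p = 0.00761). Klf2, a zinc finger factor that restrains inflammatory genes (1.15, adjusted p = 0.00155), and its relatives Klf4 (1.27, adjusted p = 0.0213) and Klf6 (0.65, adjusted p = 0.00347) were also called. Egr2 had 125 and 156 CPM in WT, 144, 83.5 and 86.9 CPM in ROBO4_KO and 49.9, 129 and 73.1 CPM in VLDLR_KO, so the groups overlapped, and neither Egr2 (0.58, adjusted p = 0.319) nor Egr3 (1.46, adjusted p = 0.156) was called.

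Further early genes were mixed. Ier2 had 99.2 and 111 CPM in WT, against 11.5 to 24.4 CPM in the knockouts (log2 fold change 2.73, SE 0.12, adjusted p = 7.44e-06), Ier3, an inhibitor of cell death, had 30.5 and 39.4 CPM in WT, against 2.33 to 6.31 CPM in the knockouts (3.09, adjusted p = 3.2e-05), and Csrnp1 had 20.6 and 34.4 CPM in WT, against 3.23 to 7.68 CPM in the knockouts (2.32, adjusted p = 0.000318). Per1, a clock gene that also responds quickly to stimuli, was called with a smaller difference (0.71, adjusted p = 0.0202). Myc had 44.1 and 42 CPM in WT, 23.3, 26.5 and 33.9 CPM in ROBO4_KO and 66.4, 54.2 and 65.3 CPM in VLDLR_KO, with WT between the knockouts and no call (0.05, adjusted p = 0.847). Arc (-1.46, adjusted p = 0.0376) and Id1 (-3.22, adjusted p = 0.0334) were called lower. Of 16 alternative settings, Arc missed the threshold in 12 and Id1 in 8. Id1, an inhibitor of basic helix-loop-helix factors, had 1.12 and 1.25 CPM in WT, 1.22, 3.39 and 7.43 CPM in ROBO4_KO and 39.5, 18.9 and 33.8 CPM in VLDLR_KO, and WT overlapped ROBO4_KO. Arc stayed under 1 CPM in all 8 libraries.

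**Figure D2:**
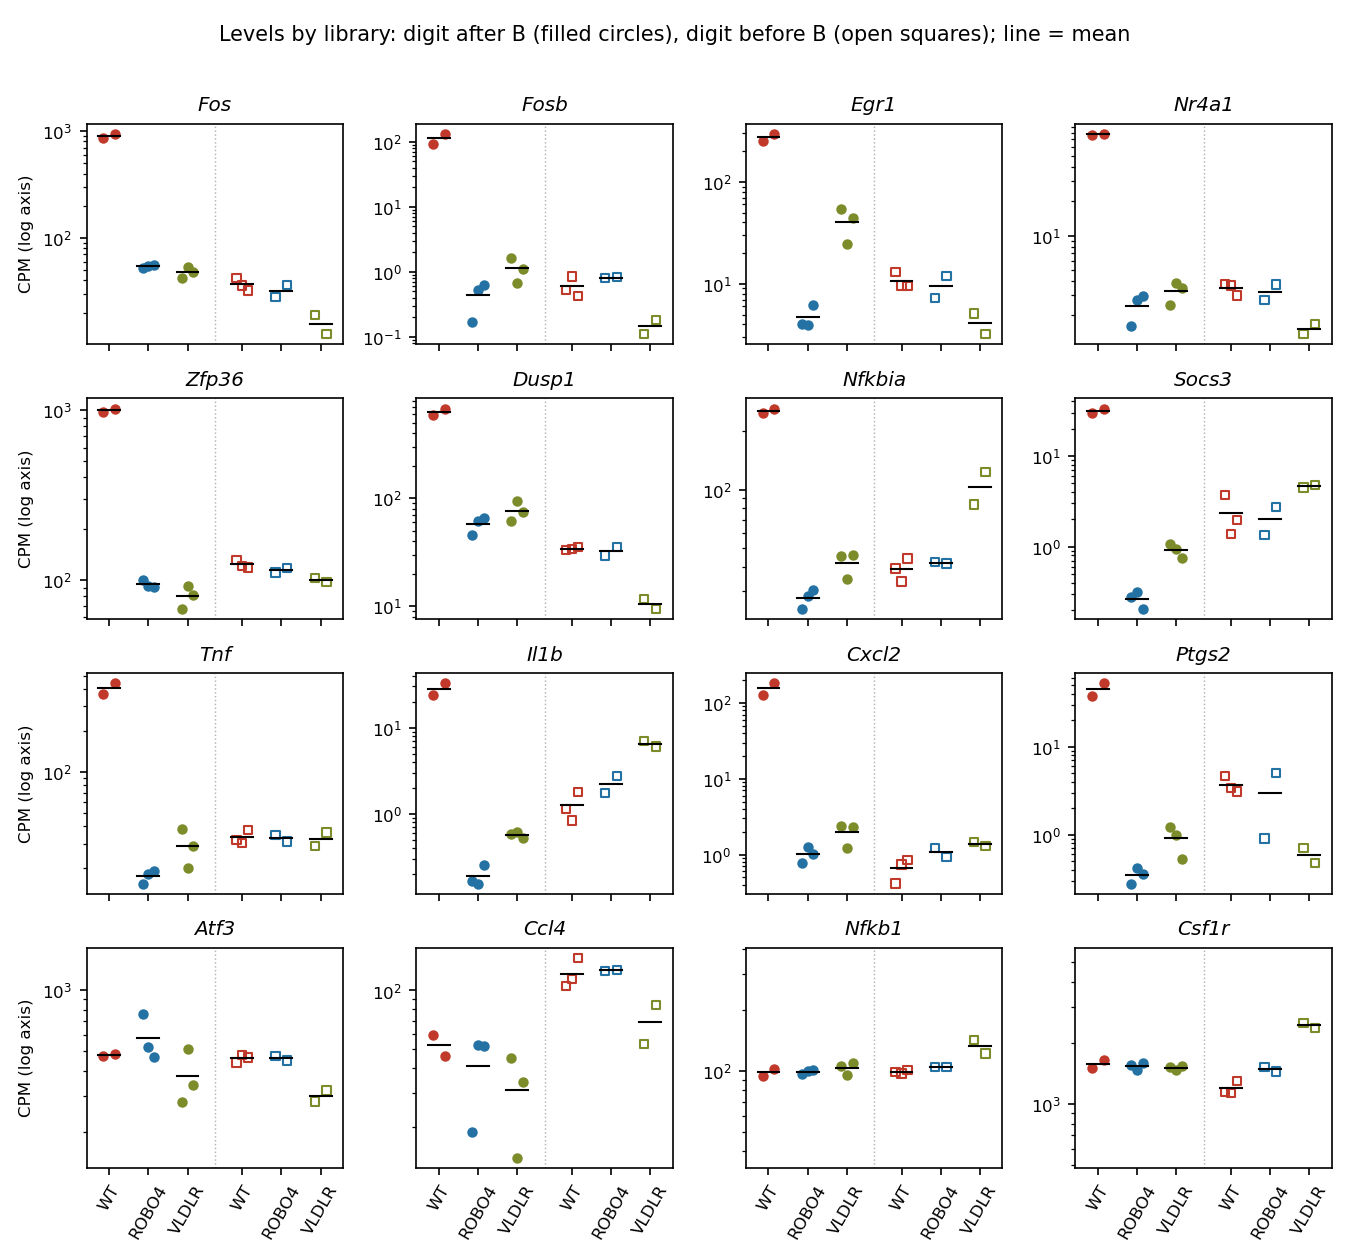
CPM of 16 genes on log axes by genotype (ROBO4 and VLDLR are the knockouts), with filled circles for libraries with the digit after B, open squares for those with the digit before B, and lines for group means. With the digit after B, Fos, at 855 and 944 CPM in WT, and 11 others are separated from the knockouts, while Atf3, Ccl4, Nfkb1 and Csf1r are not.

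The feedback genes included the brakes on each pathway. Dusp1, which encodes a phosphatase that switches off p38 and JNK, had 597 and 681 CPM in WT, 45.6, 61.4 and 66.1 CPM in ROBO4_KO and 61.8, 94.9 and 74 CPM in VLDLR_KO (log2 fold change 3.26, SE 0.16, adjusted p = 1.57e-05). Dusp2 had 32 and 38.2 CPM in WT, against 3.6 to 5.25 CPM in the knockouts (3.0, adjusted p = 1.16e-05) and Dusp5, which acts on ERK, had 7.04 and 10.9 CPM in WT, against 1.15 to 2.96 CPM in the knockouts (2.22, adjusted p = 0.000564). These WT values lay above every knockout library. Dusp6, another ERK phosphatase, was not called (-0.48, adjusted p = 0.267), with 43.2 and 42.6 CPM in WT, 31, 36.9 and 46.4 CPM in ROBO4_KO and 118, 61.9 and 104 CPM in VLDLR_KO. In the phosphatase group, with 4 higher calls of 11 tested, Dusp4 (0.52, adjusted p = 0.0814), Dusp10 (0.54, adjusted p = 0.148), Dusp16 (-0.11, adjusted p = 0.546) and Spry2 (0.27, adjusted p = 0.322) were not called.

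Genes of mRNA decay and the BTG family gave 5 higher calls of 6 tested. Zfp36 encodes tristetraprolin, which destroys Tnf mRNA, and had 971 and 1018 CPM in WT, 99.4, 91.6 and 90.4 CPM in ROBO4_KO and 67.4, 91.9 and 80.9 CPM in VLDLR_KO. Its difference was among those with the smallest error (log2 fold change 3.52, SE 0.10, adjusted p = 5.99e-07). Btg2, which promotes deadenylation and restrains growth, had 269.8 and 318 CPM in WT, 44.6, 26.6 and 25.8 CPM in ROBO4_KO and 13.3, 26.6 and 19.1 CPM in VLDLR_KO (log2 fold change 3.55, SE 0.24, adjusted p = 0.000113). Btg1 (1.43, adjusted p = 0.0033), Zfp36l1 (1.20, adjusted p = 0.00805) and Zc3h12a, which encodes the nuclease regnase-1 (1.5, adjusted p = 0.000479), were called, while Zfp36l2 was not (0.36, adjusted p = 0.127).

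In the NF-kB group, 5 of 13 tested genes were called higher, all of them inhibitors or relatives of IκB, and none of the subunit genes was called. Nfkbia, which encodes IκBα, had 246 and 261 CPM in WT, 24.4, 28.5 and 30.3 CPM in ROBO4_KO and 45.5, 34.7 and 45.9 CPM in VLDLR_KO (log2 fold change 2.90, SE 0.11, adjusted p = 2.75e-06). Nfkbiz, a nuclear coactivator of NF-kB target genes, had 70.6 and 97.6 CPM in WT, 6.5, 10.4 and 7.94 CPM in ROBO4_KO and 8.63, 5.91 and 7.85 CPM in VLDLR_KO (log2 fold change 3.42, SE 0.18, adjusted p = 2.09e-05). Tnfaip3, the ubiquitin-editing inhibitor A20, had 186 and 245 CPM in WT, against 39.2 to 70.4 CPM in the knockouts (2.0, adjusted p = 1.63e-05), and Nfkbid (1.09, adjusted p = 0.00288) and Nfkbie (0.70, adjusted p = 0.0171) were called. The subunit genes Nfkb1 (-0.04, adjusted p = 0.738), Nfkb2 (0.21, adjusted p = 0.181), Rel (0.38, adjusted p = 0.16) and Relb (0.31, adjusted p = 0.0995) did not pass the test.

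Other feedback genes gave 14 higher calls of 22. Socs3, the inhibitor of signalling through gp130, had 29.7 and 33.4 CPM in WT, 0.278, 0.313 and 0.205 CPM in ROBO4_KO and 1.06, 0.948 and 0.743 CPM in VLDLR_KO (log2 fold change 5.98, SE 0.14, adjusted p = 2.99e-07), and the related gene Cish stayed under 1.5 CPM in each of the 8 libraries (2.91, adjusted p = 0.016). Rgs1, a regulator of G-protein signalling, had 687 and 780.4 CPM in WT, against 171 to 213 CPM in the knockouts (1.90, adjusted p = 9.4e-06). Pim1, a survival kinase gene, had 162 and 208 CPM in WT, against 35.8 to 53.4 CPM in the knockouts (2.13, adjusted p = 3.16e-05) and Pim3 had 24.3 and 24.4 CPM in WT, against 6.76 to 7.9 CPM in the knockouts (1.69, adjusted p = 1.8e-05). These 3 genes kept their calls under every alternative. Ppp1r15a, which encodes GADD34 and restores translation after stress, had 166 and 196 CPM in WT, against 25.3 to 36.3 CPM in the knockouts (2.61, adjusted p = 7.44e-06). Phlda1 had 26.7 and 37.6 CPM in WT, against 2.87 to 7.37 CPM in the knockouts (2.62, adjusted p = 0.000337), Gadd45b, a stress sensor gene, had 98.8 and 119.9 CPM in WT, against 22.2 to 51.5 CPM in the knockouts (1.67, adjusted p = 0.00163), and Sik1, a kinase gene induced by cAMP, had 43.9 and 64 CPM in WT, against 13.6 to 21 CPM in the knockouts (1.77, adjusted p = 0.00056). The phosphodiesterase gene Pde4b (1.38, adjusted p = 0.00676), the G-protein regulator gene Rgs2 (1.27, adjusted p = 0.00139) and the kinase genes Sgk1 (0.97, adjusted p = 0.0171) and Plk2 (0.91, adjusted p = 0.0101) were higher by smaller amounts. Trib1 was called (0.92, adjusted p = 0.00121), but VLDLR_KO was close to WT, with 41.6 and 47.3 CPM in WT, 14.8, 13.4 and 16.4 CPM in ROBO4_KO and 39.9, 34.8 and 36.8 CPM in VLDLR_KO. Socs1 (0.79, adjusted p = 0.105) and Socs2 (0.64, adjusted p = 0.405) were not called.

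Chemokines for neutrophils showed some of the largest differences. Cxcl2 had 128 and 182 CPM in WT, 0.778, 1.25 and 1.02 CPM in ROBO4_KO and 2.38, 1.23 and 2.33 CPM in VLDLR_KO (log2 fold change 6.76, SE 0.20, adjusted p = 7.62e-07). Cxcl1 had 18.5 and 30.6 CPM in WT, 0.389, 0.156 and 0.41 CPM in ROBO4_KO and 0.371, 0.223 and 0.053 CPM in VLDLR_KO (log2 fold change 6.52, SE 0.33, adjusted p = 1.68e-05), and Cxcl3 was at most 3.76 CPM in the 8 libraries (5.35, adjusted p = 0.00101). All 3 lay above every knockout library. Of 6 tested CC chemokines only Ccl3 was called (1.07, adjusted p = 0.0439), with 133 and 144 CPM in WT, 42.9, 79 and 71.4 CPM in ROBO4_KO and 88.6, 47.8 and 66.3 CPM in VLDLR_KO. Ccl4, its close relative, had 59 and 46.2 CPM in WT, 18.9, 52.7 and 52 CPM in ROBO4_KO and 45.2, 13.9 and 34 CPM in VLDLR_KO, with overlap and no call (0.56, adjusted p = 0.479). The monocyte attractant gene Ccl2 had 13.5 and 14.2 CPM in WT, 3.61, 8.6 and 14.2 CPM in ROBO4_KO and 84, 19.2 and 65 CPM in VLDLR_KO, with all VLDLR_KO values above WT and no call (-0.68, adjusted p = 0.51).

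Among cytokines, Tnf had 368 and 443 CPM in WT, 15.3, 17.9 and 19.1 CPM in ROBO4_KO and 38.1, 19.9 and 29 CPM in VLDLR_KO (log2 fold change 4.17, SE 0.18, adjusted p = 7.44e-06). Il1b, the pyrogenic cytokine gene, had 24 and 32.7 CPM in WT, 0.167, 0.156 and 0.256 CPM in ROBO4_KO and 0.582, 0.613 and 0.53 CPM in VLDLR_KO (log2 fold change 6.38, SE 0.17, adjusted p = 5.24e-07). Il10, the anti-inflammatory cytokine gene, had 10.2 and 10.6 CPM in WT, 0.111, 0.991 and 0.666 CPM in ROBO4_KO and 0.159, 0.502 and 0.159 CPM in VLDLR_KO (log2 fold change 4.67, SE 0.44, adjusted p = 0.000738). All 3 were called against each knockout. Il1a had 16.9 and 18.2 CPM in WT, against 3.02 to 9.6 CPM in the knockouts (1.75, adjusted p = 0.000877) and Osm, the oncostatin M gene, had 33.3 and 34.1 CPM in WT, against 2.06 to 8.26 CPM in the knockouts (2.72, adjusted p = 0.00101). Lif, a cytokine of the same family as Osm, was called (1.80, adjusted p = 0.027), with 0.671 and 1.37 CPM in WT, 0.222, 0.208 and 0.256 CPM in ROBO4_KO and 0.318, 0.39 and 0.371 CPM in VLDLR_KO. Gdf15, a stress cytokine gene, had 48.6 and 57.5 CPM in WT, against 10.2 to 24 CPM in the knockouts (1.62, adjusted p = 0.00433), and Tnfsf9, which encodes the ligand of 4-1BB, had 15.4 and 17.2 CPM in WT, 0.556, 1.98 and 2.87 CPM in ROBO4_KO and 13.2, 3.85 and 9.23 CPM in VLDLR_KO, with VLDLR_KO above ROBO4_KO (2.03, adjusted p = 0.0439). Il18 was the 1 mediator called lower, with 9.89 and 9.35 CPM in WT, 17.4, 17.9 and 17.2 CPM in ROBO4_KO and 11.2, 12.7 and 13.4 CPM in VLDLR_KO (-0.61, adjusted p = 0.0129). Il6, Il12b, Ifnb1 and Nos2, genes of classical strong activation, were at most 0.212 CPM in each of the 8 libraries and were not tested.

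Ptgs2, which encodes the inducible cyclooxygenase, had 38.2 and 52.7 CPM in WT, 0.278, 0.417 and 0.359 CPM in ROBO4_KO and 1.22, 1 and 0.53 CPM in VLDLR_KO (log2 fold change 6.30, SE 0.22, adjusted p = 1.79e-06). Thbs1, a secreted matrix glycoprotein, had 72.2 and 108 CPM in WT, against 10.5 to 21.8 CPM in the knockouts (2.65, adjusted p = 0.000122). Acod1, which makes itaconate, was not called (0.54, adjusted p = 0.573), with 2.35 and 3.25 CPM in WT, 0.612, 1.82 and 2.2 CPM in ROBO4_KO and 3.18, 0.725 and 3.18 CPM in VLDLR_KO. Among receptors, Ccrl2 had 209.8 and 260 CPM in WT, against 19.9 to 43.1 CPM in the knockouts (3.0, adjusted p = 0.000386), Cd14, the lipopolysaccharide coreceptor, had 394 and 407 CPM in WT, against 149 to 287 CPM in the knockouts (0.89, adjusted p = 0.0158), and Tlr2 had 55.2 and 60.6 CPM in WT, against 16.7 to 39 CPM in the knockouts (0.97, adjusted p = 0.0462). Cd69, an early activation antigen, had 1.51 and 2 CPM in WT, 0, 0.417 and 0.205 CPM in ROBO4_KO and 0.529, 0.39 and 0.796 CPM in VLDLR_KO (2.31, adjusted p = 0.0444). Plaur (0.04, adjusted p = 0.783), Icam1 (-0.16, adjusted p = 0.52) and Cd86 (0.31, adjusted p = 0.529) were not called. In fragments per kilobase and per library size (FPKM), a scale that allows genes to be compared, Zfp36 stood at 588 and 611 FPKM in WT, Fos at 430 and 470, Tnf at 239 and 286, Cxcl2 at 135 and 191, and Il1b at 18.0 and 24.1. The level of the macrophage gene Lyz2 was 11810 and 10760 FPKM there.

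Against each knockout on its own, 151 genes were called higher in WT than in ROBO4_KO (1.29%) and 37 lower (0.315%), and 1048 were higher in WT than in VLDLR_KO (8.92%) and 791 lower (6.74%). Both comparisons share the 2 WT libraries. Of the 61 higher calls in the 3 lists, 47 were called higher against each knockout, as were 115 of all tested genes (0.979%). The 61 were called from these same libraries, so their share is raised by how they were picked. Fos differed by 4.05, adjusted p = 9.36e-07 against ROBO4_KO and 4.24, adjusted p = 4.58e-07 against VLDLR_KO, and Zfp36 by 3.41, adjusted p = 3.76e-06 and 3.64, adjusted p = 2.37e-06. Egr1 differed by 5.85, adjusted p = 5.52e-05 against ROBO4_KO and by 2.75, adjusted p = 0.000737 against VLDLR_KO, and Il1b by 7.15, adjusted p = 2.13e-06 and 5.61, adjusted p = 2.87e-06. Klf4 (0.74, adjusted p = 0.105), Fosl2 (0.28, adjusted p = 0.14), Trib1 (0.26, adjusted p = 0.137), Sgk1 (0.52, adjusted p = 0.111), Errfi1 (0.21, adjusted p = 0.313) and Tnfsf9 (0.89, adjusted p = 0.272) were not called against VLDLR_KO. Other members were not called against ROBO4_KO. The CC chemokines, Ccl3 among them, had 0 higher calls against ROBO4_KO. Surface receptors had 2 higher calls against ROBO4_KO and 3 against VLDLR_KO, where 4 were called against the mean of the knockouts. Without WT replicate 1 the counts were 70 and 9 against ROBO4_KO and 398 and 162 against VLDLR_KO, and without WT replicate 3 they were 44 and 9, and 304 and 127.

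**Figure D3:**
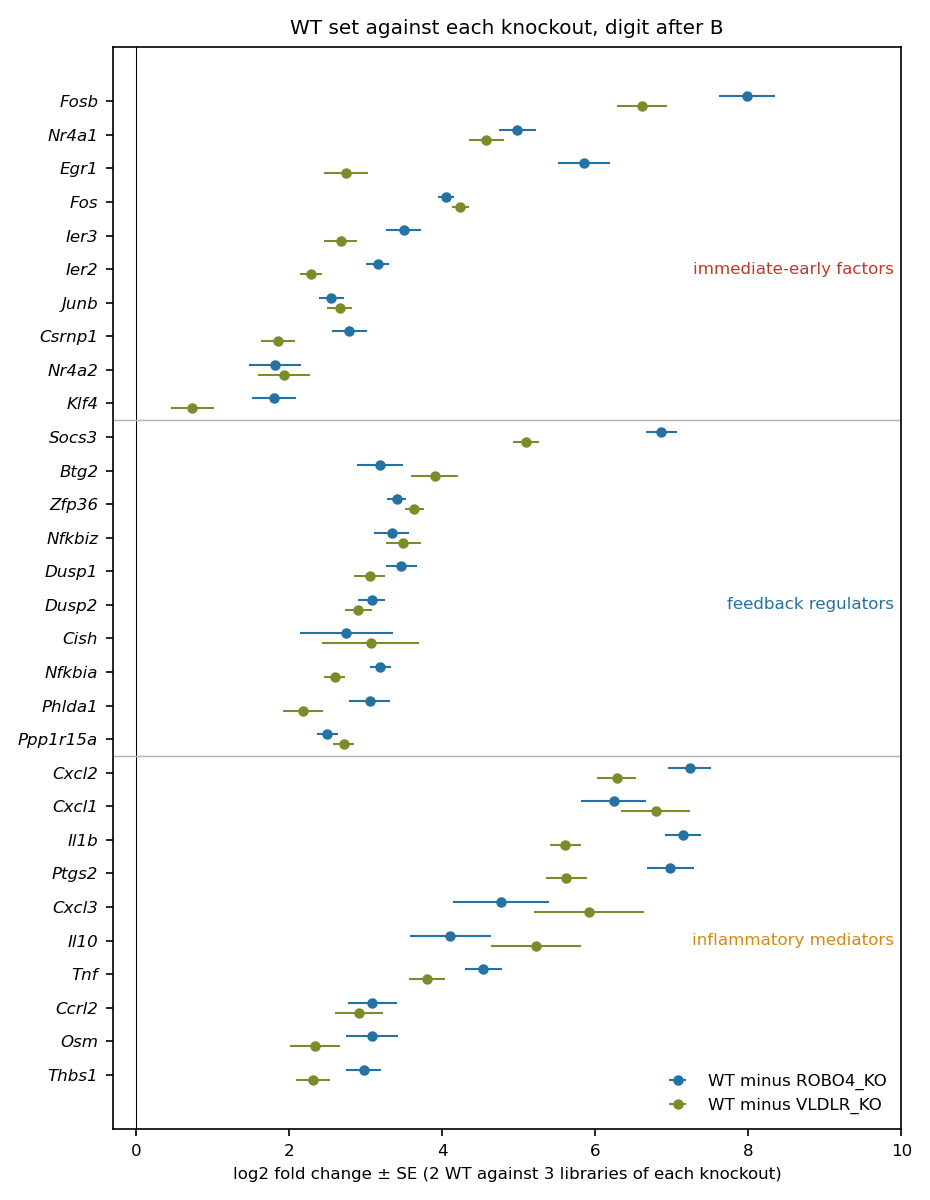
Log2 fold change with SE (horizontal axis) of WT over ROBO4_KO and over VLDLR_KO for the 10 called members with the largest difference in each list. All points lie to the right of 0, and Egr1 shows the widest gap between the knockouts, at 5.85 and 2.75.

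With the digit before B most of these genes were not called. In the 3 WT libraries and 4 knockout libraries of that form, 393 of 11894 genes were called higher in WT (3.3%) and 205 lower (1.72%), but of the 61 list members called above only 3 were among the higher ones. Fos had 42.2, 35.8 and 32.1 CPM in WT, 27.9 and 36 CPM in ROBO4_KO and 19 and 12.5 CPM in VLDLR_KO there, with WT near ROBO4_KO and above VLDLR_KO (0.71, adjusted p = 0.0642). Tnf had 32, 30.3 and 37.9 CPM in WT, 34.5 and 31 CPM in ROBO4_KO and 28.7 and 36.2 CPM in VLDLR_KO (0.03, adjusted p = 0.92). Il1b had 1.14, 0.844 and 1.81 CPM in WT, 1.76 and 2.74 CPM in ROBO4_KO and 7.03 and 6.06 CPM in VLDLR_KO, and was called lower in WT there (-1.60, adjusted p = 0.0347). Of the 61 genes, which were called because they were high in WT replicates 1 and 3, 59 had a lower mean in the WT libraries of this form.

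The difference between the forms was tested directly. In 239 of 12198 genes (1.96%) the log2 difference of WT minus knockouts was larger (more positive) with the digit after B, and in 71 (0.582%) it was smaller. Of the 61 list members, 47 had a larger difference. They were picked for high values in WT replicates 1 and 3, which also enter this test, so their share is no separate support. The gap between forms was 7.98, adjusted p = 8.29e-08 for Il1b, 7.63, adjusted p = 2.14e-07 for Cxcl2, 4.14, adjusted p = 1.09e-06 for Tnf and 3.43, adjusted p = 7.78e-07 for Fos. Jun (0.44, adjusted p = 0.102), Il1a (0.49, adjusted p = 0.549), Thbs1 (1.43, adjusted p = 0.276) and Gdf15 (0.93, adjusted p = 0.169) were not called. Icam1, an adhesion receptor gene not called with the digit after B, was lower in WT in the other form (-1.35, adjusted p = 0.0011) and differed between the forms (1.19, adjusted p = 0.00229). DESeq2 gave 446 larger and 299 smaller differences. Without WT replicate 1 there were 110 and 9, and without WT replicate 3 there were 80 and 3.

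**Figure D4:**
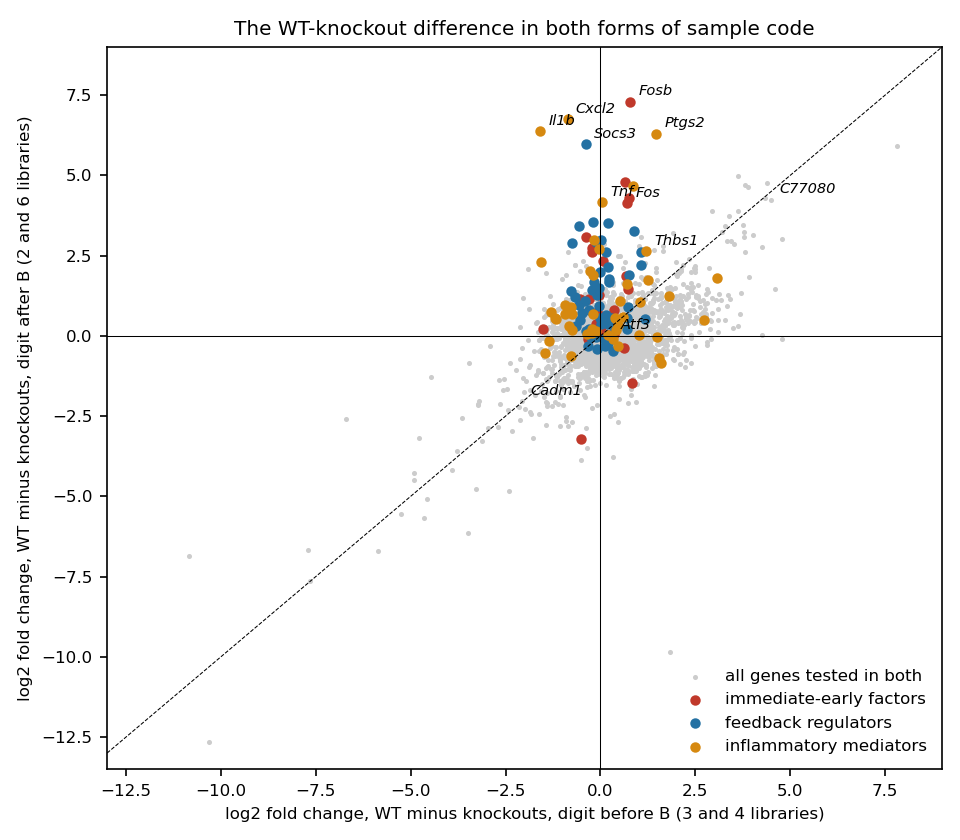
Log2 fold change of WT over knockouts with the digit before B (horizontal) and after B (vertical) for all genes tested in both, with list members coloured and a dashed line of equality. Members such as Fosb, Cxcl2 and Il1b lie between -1.60 and 0.79 on the horizontal axis and between 6.38 and 7.30 on the vertical axis, while C77080 and Cadm1 lie near the dashed line.

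What else goes with the state was read from the 149 genes (1.27%) that were called higher, lay above all 6 knockouts and had a larger difference with the digit after B. They were 90 without WT replicate 1 and 70 without WT replicate 3. The 3 lists held 47 of them and 102 were in none. The reverse pattern, lower and below all 6 with a smaller difference, held for 10 genes (0.0851%). By the deposited gene coordinates, the median genomic span of the 149 was 14078 bases, against 25918 bases over all tested genes, and 40.3% against 21.6% spanned under 10000 bases. The 215 other genes called higher and above all 6 knockouts had a median span of 24987 bases. The 149 also had a higher median level in WT, 73.2 CPM, against 44.7 CPM in the 215 and 26.8 CPM over all tested genes. The part of level in the shorter span was not tested.

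Of the 149, RefSeq promoters were found for 117, with 171 windows of 300 bases (250 before to 50 after the start). A kappa-B site on either strand was found in 14.0% of these windows, against 5.04% of the windows of all tested genes and 4.51% of all 32851 windows. The cAMP response element was in 4.09%, against 3.06% and 1.79%. The AP-1 site (TGANTCA) was in 4.09%, against 5.1% and 7.81%, and the CArG box, the site of serum response factor, was in 1.17%, against 1.22% and 1.63%. Among the 215 other higher genes the kappa-B site was in 7.8% of the windows, the cAMP response element in 0.976% and the AP-1 site in 13.2%. Among genes called lower and below all 6 knockouts the kappa-B site was in 2.11% and the other 2 motifs were in 4.21% each, so the share with a cAMP response element was near that of the 149. These matches were counted and not tested.

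Outside the 3 lists, the growth and signalling genes among the 149 included Vegfa, the endothelial growth factor gene, with 81.4 and 118 CPM in WT, 17.5, 19.4 and 26.1 CPM in ROBO4_KO and 13.8, 22.3 and 20.6 CPM in VLDLR_KO (log2 fold change 2.32, SE 0.20, adjusted p = 0.000479). Map3k8, the kinase that links Toll-like receptors to ERK, had 26.4 and 27.8 CPM in WT, against 10.5 to 19.1 CPM in the knockouts (0.96, adjusted p = 0.00109), and Ndrg1 had 98.3 and 106 CPM in WT, against 33.8 to 78.6 CPM in the knockouts (1.03, adjusted p = 0.000124). WT lay above every knockout library for each. The genes named next were chosen after their values were seen. Nfil3, a leucine zipper factor, had 17.6 and 24 CPM in WT, against 4.22 to 5.89 CPM in the knockouts (2.03, adjusted p = 0.000243) and Prdm1, which encodes BLIMP1, had 49.9 and 61.2 CPM in WT, against 17.1 to 38 CPM in the knockouts (1.14, adjusted p = 0.0024). The interferon regulatory factors Irf1 (0.94, adjusted p = 0.000652) and Irf8 (0.47, adjusted p = 0.00735), the chemokine receptor Cxcr4 (1.14, adjusted p = 0.000753), the surface glycoprotein Cd83 (0.99, adjusted p = 0.00188) and the growth factor Bmp2 (2.48, adjusted p = 0.0039) were called. Slit1, which encodes a ligand of ROBO receptors, had 3.52 and 3.88 CPM in WT, 0.834, 1.36 and 1.64 CPM in ROBO4_KO and 0.212, 0.112 and 0.318 CPM in VLDLR_KO, with a difference between the forms of 1.78, adjusted p = 0.0214.

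For other pathways the calls are read against 3.95% higher and 1.53% lower of all tested genes, and lists of these sizes are too small for 0 calls to be told from those shares. By edgeR's quasi-likelihood test, 0 of 13 heat-shock, 0 of 18 lysosomal, 0 of 21 cell-cycle and 0 of 10 lipid-efflux genes were called. At an unadjusted p under 0.05 there were 2 higher and 0 lower heat-shock genes, 1 and 1 lysosomal, 0 and 5 cell-cycle and 3 and 0 lipid-efflux genes, and DESeq2 called 1 and 0, 0 and 1, 0 and 0, and 1 and 0. Over all tested genes, 13% were higher and 10.2% lower at that unadjusted p. Of 24 genes of Toll-like receptor signalling 3 were higher, Map3k8, Tlr8 (0.54, adjusted p = 0.0396) and Irak2 (0.27, adjusted p = 0.0421). Of 16 alternative settings, Map3k8 missed the threshold in 1, Tlr8 in 9 and Irak2 in 12. Of 27 interferon-response genes 4 were higher, and Rsad2 had 13.7 and 20.6 CPM in WT, against 5.46 to 10.3 CPM in the knockouts (1.09, adjusted p = 0.0066). Against ROBO4_KO alone 0 of the 27 were called higher, and against VLDLR_KO alone 8 were. The shares of all tested genes were 1.29% and 8.92%. In the other form Rsad2 was also higher in WT (2.12, adjusted p = 0.00126). Of 26 macrophage identity genes 3 were higher, Cebpb (1.02, adjusted p = 0.00928), Fcgr4 (0.78, adjusted p = 0.0222) and Fcgr3 (0.57, adjusted p = 0.0496), and Vsig4 was lower (-1.87, adjusted p = 0.0324). Of the 16 settings, Cebpb missed the threshold in 2, Fcgr4 in 5, Fcgr3 in 10 and Vsig4 in 6. In this list 1 gene was higher and 0 lower against ROBO4_KO alone, and 6 and 5 against VLDLR_KO alone. Gclm, a glutathione synthesis gene, was lower in WT (-0.72, adjusted p = 0.00758). Of 20 sterol synthesis genes 3 were higher, among them Insig1 (0.56, adjusted p = 0.00673), and 1 lower. With the digit before B, 9 of the 20 sterol synthesis genes were higher in WT, against 3.3% of all tested genes. In 3 of them the difference was called smaller with the digit after B, and in 0 larger.

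**Figure D5:**
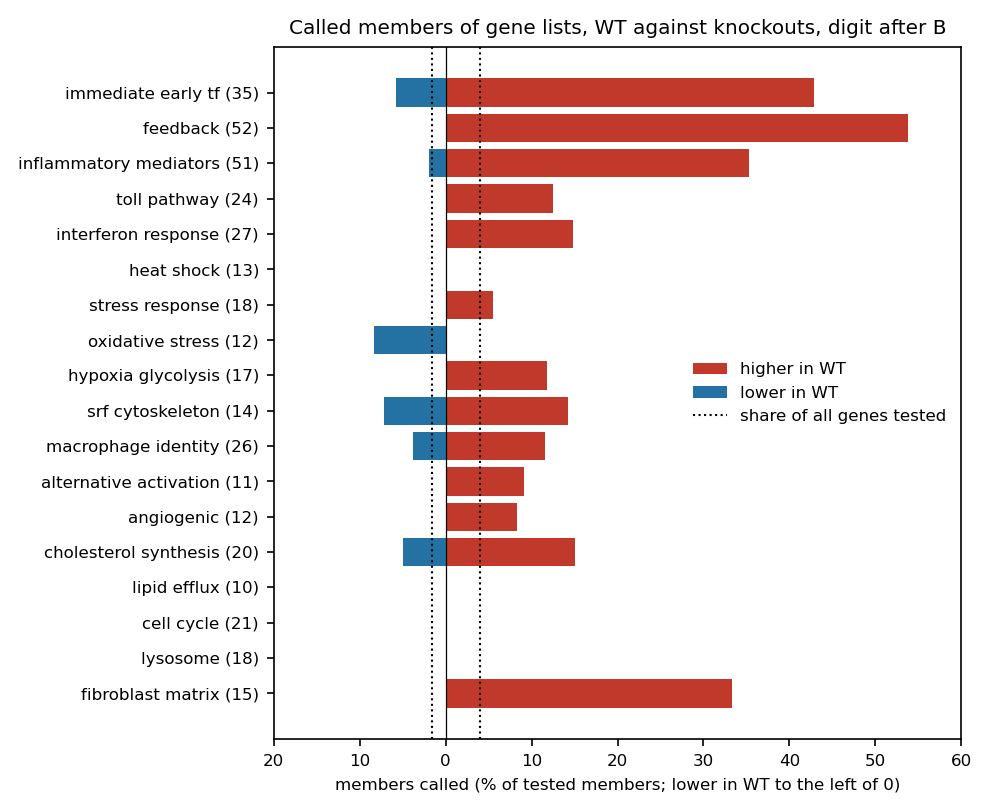
Share of tested members called higher in WT (right of 0) and lower (left of 0) for lists with at least 10 tested members, with the number tested in parentheses and dotted lines at the shares of all tested genes, 3.95% and 1.53%. Feedback regulators, with 28 of 52, and immediate-early factors, with 15 of 35, have the longest bars. The lists were written with earlier results of these data known.

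Some markers of other cell types differed between WT and the knockouts with the digit after B. Fibroblast and matrix genes summed to 50.4 and 64.3 CPM in WT, against 19.4 to 37.3 CPM in the knockouts, and 5 of 15 were called higher, against 3.95% of all tested genes, including Col3a1 (2.87, adjusted p = 0.011), Dcn (1.85, adjusted p = 0.0136) and Sparc (1.17, adjusted p = 0.01). At an unadjusted p under 0.05, 10 of the 15 were higher, against 13% of all tested genes, DESeq2 called 6, and 8 lay above all 6 knockout libraries, against 9.81%. Col1a1 had 9.67 and 10.6 CPM in WT, against 1.45 to 8.58 CPM in the knockouts. Neutrophil genes summed to 110 and 122 CPM in WT, against 69.4 to 84.0 CPM, of which Csf3r had 75.1 and 88.5 CPM in WT, against 44.6 to 65.1 CPM in the knockouts, while S100a8 had 2.24 and 1.94 CPM in WT, against 1.27 to 3.6 CPM in the knockouts. Cell-cycle genes summed to 1617 and 1323 CPM in WT and to 1203 CPM in ROBO4_KO replicate 1 and 1568 CPM in VLDLR_KO replicate 2, against 2352 to 3086 CPM in the other 4 knockout libraries. The part of these in the activation genes was not tested.

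Among genes lower in WT and below all 6 knockouts, Cxcl14, a chemokine gene, had 6.15 and 3.31 CPM in WT, 11.8, 9.07 and 11.7 CPM in ROBO4_KO and 127, 121 and 130.1 CPM in VLDLR_KO (log2 fold change -2.96, SE 0.22, adjusted p = 0.000185), and it was also lower in WT in the other form (-2.32, adjusted p = 0.00137). Fabp7, a fatty-acid binding protein gene, had 5.98 and 4.33 CPM in WT, 16, 16.9 and 30.3 CPM in ROBO4_KO and 47.9, 74.6 and 60.7 CPM in VLDLR_KO (-2.79, adjusted p = 0.00241). The arginine transporter gene Slc7a2 had 8.89 and 13.7 CPM in WT, 18.4, 15.4 and 17.8 CPM in ROBO4_KO and 142, 214 and 126 CPM in VLDLR_KO, called against VLDLR_KO (-3.83, adjusted p = 0.000112) and not against ROBO4_KO (-0.60, adjusted p = 0.388). Cd34 (-2.44, adjusted p = 0.0062), Pald1 (-2.77, adjusted p = 0.0171) and Ica1 (-2.14, adjusted p = 0.00866) were also called. The largest 15 held 9 predicted Gm genes, whose counts may be shared with near-identical copies. With the digit before B, WT estimated counts also lay below all knockouts for Gm42031, Gm41885, Gm41035, Gm42102, Gm43828, Gm39972 and Gm40498. There WT overlapped the knockouts for Gm40814, Gm42368 and Fabp7. Kitl, the stem cell factor gene, was lower with the digit after B, with 14.6 and 15.8 CPM in WT, against 26.9 to 34 CPM in the knockouts, and differed between the forms (-1.04, adjusted p = 0.0356).

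Some large WT-knockout differences were seen in both forms of the code. Except C77080, these genes were chosen after their values were seen. Cadm1, an adhesion gene, had 114 and 111 CPM in WT, against 402 to 528 CPM in the knockouts (-2.03, adjusted p = 1e-06) and in the other form differed by -2.06, adjusted p = 0.000739. Nnt, the transhydrogenase gene that is deleted in part in C57BL/6J mice, had 28.9 and 28.4 CPM in WT, against 44.9 to 63 CPM in the knockouts (-0.97, adjusted p = 0.00347) and differed by -1.03, adjusted p = 0.00319 in the other form. C77080 had 201 and 214 CPM in WT, 191, 167 and 139.5 CPM in ROBO4_KO and 0.847, 0.725 and 0.583 CPM in VLDLR_KO, low in VLDLR_KO and not called against ROBO4_KO (0.33, adjusted p = 0.295). Rpl29 had 384 and 354 CPM in WT, 0.667, 1.04 and 0.922 CPM in ROBO4_KO and 386, 378 and 409.9 CPM in VLDLR_KO, and its copy Gm8210 had 0 and 0.114 CPM in WT, 316, 332 and 329 CPM in ROBO4_KO and 0.212, 0.167 and 0 CPM in VLDLR_KO, a pair whose reads may be split between near-identical copies. Of genes tested in both forms, 98 (0.853%) were called higher and 48 (0.418%) lower in both. Qk, the gene of the RNA-binding protein QKI that the study is about, had 279.9 and 304 CPM in WT, 292, 273 and 279 CPM in ROBO4_KO and 219, 216 and 188 CPM in VLDLR_KO (0.27, adjusted p = 0.0765), and Slc17a5, the other gene the study names, had 81 and 88.6 CPM in WT, 102, 87.5 and 86.8 CPM in ROBO4_KO and 75.9, 85.9 and 75.2 CPM in VLDLR_KO (-0.01, adjusted p = 0.977).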

How the data were processed

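Total RNA from cultured bone macrophages was extracted with TRIzol and sequenced on a BGISEQ-500 instrument, per the labels' protocols. The authors deposited a table of estimated counts and FPKM for 16886 genes. HISAT and Bowtie2 and the build GRCm38.p6 are named per the submitters' processing notes, and the program that made the counts is not given in the sources used here. Of the deposited estimated counts, 92.6% were whole numbers, and all were rounded before testing.

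Genes that passed filterByExpr in the 8 libraries were fitted with TMM factors and edgeR's quasi-likelihood test, as WT minus the mean of ROBO4_KO and VLDLR_KO (R 4.3.3, edgeR 4.0.16, limma 3.58.1, Benjamini-Hochberg adjusted p under 0.05). The 7 libraries of the other code form were fitted alone, and all 15 together for the difference between forms. Adjustment was over all tested genes. The steps were tested on simulated data. Levels printed as FPKM are those the authors deposited.

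Members and gene lists (31 lists, 560 genes, 542 of them in the table) were chosen with earlier results of these data known. Genes could be named if they were members of the 3 activation lists, among the 15 largest called differences in each direction with at least 5 CPM in the higher group and WT outside the knockout range, among the 10 largest differences between forms in each direction, genes the study is about, or up to 4 called members of another list. Further genes are said to have been chosen after their values were seen, and some items are not reported here. Alternatives were RLE normalization, DESeq2 1.42.0, no filter on low counts, knockouts as 1 group, all 15 libraries in the fit, a replicate block and each library left out. Leaving out 2 pairs of libraries was added after seeing the data. Promoter windows come from RefSeq (GRCm38.p6) and motifs were searched on both strands. At these depths replicates differed by more than sampling noise, and no libraries were merged.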

Additional observations from a re-analysis of the deposited data

Results flagged for a closer look

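The test of the difference between the code forms, by edgeR's quasi-likelihood test over 15 libraries, called 239 genes with a larger WT-knockout difference with the digit after B and 71 with a smaller one. The values below are differences of log2 fold changes, with the digit after B minus the digit before B, for reported genes called both in this test and in the WT-knockout comparison with the digit after B. Members of the 3 lists called in this test alone are included, and these are Id3, Klf10, Bcl3, Relb, Cxcl16, Icam1 and Vcam1.

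Among immediate-early factors they were Fosb 6.51, Nr4a1 4.13, Egr1 3.54, Ier3 3.46, Fos 3.43, Ier2 2.95, Junb 2.83, Csrnp1 2.26, Id3 1.71, Klf2 1.45, Per1 0.86 and Klf6 0.68. Among feedback regulators they were Socs3 6.37, Nfkbiz 3.97, Btg2 3.73, Nfkbia 3.65, Zfp36 3.31, Cish 3.02, Dusp2 2.99, Ppp1r15a 2.46, Dusp1 2.37, Pde4b 2.16, Tnfaip3 2.01, Pim1 1.93, Zfp36l1 1.87, Pim3 1.86, Btg1 1.65, Phlda1 1.55, Zc3h12a 1.54, Sgk1 1.54, Sik1 1.53, Nfkbid 1.5, Gadd45b 1.44, Rgs2 1.36, Nfkbie 1.19, Rgs1 1.16, Bcl3 1.03, Trib1 0.96 and Relb 0.94. Among inflammatory mediators they were Il1b 7.98, Cxcl1 7.77, Cxcl2 7.63, Ptgs2 4.84, Tnf 4.14, Cd69 3.87, Il10 3.81, Ccrl2 3.17, Osm 2.75, Tlr2 1.91, Cd14 1.65, Cxcl16 1.60 and Icam1 1.19. Outside these lists they were Vegfa 2.77, Nfil3 2.56, Cxcr4 2.05, Bmp2 2.01, Hist1h1c 1.90, Slit1 1.78, Prdm1 1.47, Csf3r 1.42, Cd83 1.38, Irf1 1.29, Map3k8 1.14, Ndrg1 0.98, Tnfaip2 0.86, Birc3 0.79, Irf8 0.73 and Bcl2l11 0.55. The genes reported here with a smaller difference were Ttl -0.53, LTO1 -0.57, Tmem186 -0.62, Ppp2r1b -0.75, Tubb6 -0.76, Mthfd1 -0.85, Ifi211 -0.90, Klf10 -0.997, Kitl -1.04, Vcam1 -1.53 and Arc -2.31. The form of the code and any batch that goes with it cannot be told apart.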

How the results depend on the processing

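Of 464 higher and 180 lower calls (WT against knockouts, digit after B), the counts were 94 and 25 with knockouts as 1 group and 183 and 57 with the replicate block, while DESeq2 gave 339 lower calls. Leaving out single libraries gave 105 to 754 higher and 35 to 371 lower calls. Leaving out VLDLR_KO replicates 1 and 2 gave 104 lower calls, and leaving out ROBO4_KO replicate 1 and VLDLR_KO replicate 2 gave 1811 higher and 1656 lower. For the 364 genes above all 6 knockouts the counts were 94 with knockouts as 1 group, 154 with the replicate block, 822 without ROBO4_KO replicate 1 and VLDLR_KO replicate 2, and 86 to 514 without single libraries. For the 128 below all 6 they were 221 with DESeq2, 25 with knockouts as 1 group, 39 with the replicate block, 73 and 540 without these pairs, and 21 to 258 without single libraries. Inflammatory mediators called higher numbered 11 with knockouts as 1 group and 11 to 20 without single libraries, and immediate-early factors 9 to 17. DESeq2 gave 446 larger and 299 smaller differences between forms, and leaving out a WT library gave 80 to 110 and 3 to 9. Without a WT library the 149 genes became 70 to 90, the calls against ROBO4_KO 44 to 70 and 9, and those against VLDLR_KO 304 to 398 and 127 to 162. The cause was not tested.

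Same-numbered libraries of the 8 had deviations from their group means that correlated at -0.46 to 0.23, which gave no sign of pairing by number. With 2 or 3 libraries in each group this check cannot decide whether same-numbered libraries share an animal or batch. With the replicate block, 11 immediate-early factors, 23 feedback regulators and 12 inflammatory mediators were called higher. Over 142 named genes and 16 alternatives, 1862 of 2272 values kept direction and call, 408 kept direction and missed the threshold, 2 newly passed it and 0 reversed. Among the less stable calls, Arc missed the threshold in 12 of the 16, and Lif, Gbp3 and Birc3 in 10 each. Fosl2, Tlr2 and Errfi1 missed it in 9 each, and Id1, Ccl3 and Cd69 in 8 each. With 2 WT libraries, the WT spread rests on a single difference, and low genes such as Cish and Cxcl3 are limited by counting error.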

Other observations

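Cytoskeletal targets of serum response factor were mixed. Cnn2, a calponin gene, had 28.5 and 33.1 CPM in WT, against 13.1 to 25 CPM in the knockouts (0.76, adjusted p = 0.0083), and Tpm1, a tropomyosin gene, was also called higher (0.60, adjusted p = 0.00618), while Tubb6, a tubulin gene, was called lower (-0.44, adjusted p = 0.034). Of 14 tested members, 2 were higher and 1 lower, against 3.95% and 1.53% of all tested genes. With the digit before B, 6 of 15 were higher in WT and 0 lower, against 3.3% and 1.72%. In 3 members the difference was called smaller with the digit after B, and in 0 larger. Among interferon-response genes, Zbp1, a nucleic acid sensor, had 3.91 and 4.62 CPM in WT, against 1.72 to 2.81 CPM in the knockouts (0.92, adjusted p = 0.0435), and Gbp3 (0.77, adjusted p = 0.035) and Oasl2 (0.57, adjusted p = 0.00899) were called higher. These calls are against the mean of the knockouts, and 0 members of this list were called higher against ROBO4_KO alone. The MHC class II list summed to 368 to 445 CPM in WT, against 180 to 396 CPM in the knockouts, and of 7 tested members H2-DMb1 was called by edgeR's quasi-likelihood test (0.39, adjusted p = 0.0261). DESeq2 called 6 of the 7 higher, where it called 619 of 11744 genes higher in all. At an unadjusted p under 0.05, 7 were higher, against 13% of all tested genes. Against ROBO4_KO alone 0 of the 7 were called higher, and against VLDLR_KO alone 6 were. The shares of all tested genes were 1.29% and 8.92%. Klrb1c, a natural killer cell receptor gene, had 1.34 and 0.798 CPM in WT, 1.11, 0.574 and 0.615 CPM in ROBO4_KO and 0, 0 and 0 CPM in VLDLR_KO, with overlap between WT and ROBO4_KO.

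Among predicted genes, Gm42031 had 0 counts in both WT libraries, and the mean of the knockouts was at least 259.9-fold higher than the floor of 3 counts per library. The genes Hist1h1c (1.20, adjusted p = 0.0158), Tnfaip2 (0.84, adjusted p = 0.027), Birc3 (0.44, adjusted p = 0.0385) and Kdm6b (1.35, adjusted p = 0.00155) were chosen after their values were seen and were higher in WT.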
